A study of Ovis aries with 6 samples.

Results

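HR and KLF9 are known targets of the thyroid hormone receptor, and this section describes their transcripts in the choroid plexus of the ewe, the tissue that secretes cerebrospinal fluid. They were taken by symbol from the deposited table, where each has 1 row (identifiers 443241 for HR and 101104718 for KLF9), so they are 2 of 33609 listed genes. PolyA RNA was sequenced from thyroidectomised ewes in long days (THX), control ewes in long days (Long) and control ewes in short days (Short). Per the design text, groups held 8 ewes (7 in THX), and equal amounts of RNA from 3 to 4 of them were mixed into each of 2 pools per group. No breed, age, reproductive state or time of collection was used here, and the surgery of the control ewes is not described in the labels. The pools are mixtures of ewes, so a p-value here reflects how pools vary, not how single animals vary.

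Thyroid hormone acts through nuclear receptors that sit on DNA with a retinoid X receptor. Without hormone the receptors hold corepressors and keep many target genes low, and with hormone they exchange these for coactivators. HR encodes Hairless, a nuclear protein with a JmjC domain that binds thyroid hormone receptors, the vitamin D receptor and retinoid-related orphan receptors as a corepressor. It is induced by thyroid hormone in the developing rodent brain. KLF9 encodes a zinc finger transcription factor of the Krüppel-like family, induced by thyroid hormone in frog tadpoles and in rodent neural cells, and also induced by glucocorticoids. The choroid plexus epithelium itself makes transthyretin (TTR), a carrier of thyroid hormone.

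Total counts per pool ran from 48282883 to 82100653, and 18019 genes had enough counts to be tested. In a principal component analysis THX pool 2 and Short pool 1 lay at opposite ends of the first component, which held 30.9% of the variance, and THX pool 1 lay apart on the second, which held 26.4%. The results below are therefore also given without single pools. Of 30 listed markers of the choroid plexus epithelium 29 had a row, and all 29 had counts. Their summed level was 135900 to 157800 CPM in THX pools, 123800 to 125800 CPM in Long pools and 104500 to 109500 CPM in Short pools. TTR made up 86.5% of it. Without TTR it was 17060 and 17100 CPM in THX pools, 16210 and 16580 CPM in Long pools and 18130 and 16770 CPM in Short pools. Both THX pools then lay above both Long pools and between the Short pools. CPM are counts per 1000000 counts of a library, after TMM adjustment of library sizes.

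HR was far lower in THX pools than in either group with a thyroid. It had 3.36 and 2.76 CPM in the 2 THX pools, against 23.7 and 23.4 CPM for Long and 25.6 and 25.3 CPM for Short. These levels rest on 191 and 183 reads for THX, 1326 and 1270 for Long and 2162 and 1270 for Short. The groups did not overlap, and the lowest pool of the thyroid-intact ewes lay far above the higher THX pool. With exact 95% Poisson intervals, which cover counting error only, the THX levels extended from 2.37 to 3.87 CPM and those of the other 4 pools from 22.1 to 26.7 CPM.

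KLF9 was also lower in THX pools, by a smaller fold. It had 36.1 and 34.1 CPM in THX pools, against 93.2 and 89.9 CPM in Long pools and 99.98 and 88.3 CPM in Short pools. The reads behind these levels numbered 2049 and 2262 in THX pools, 5225 and 4887 in Long pools and 8454 and 4433 in Short pools. Again both THX pools lay below every thyroid-intact pool, while the Long pools lay between the 2 Short pools.

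**Figure D1:**
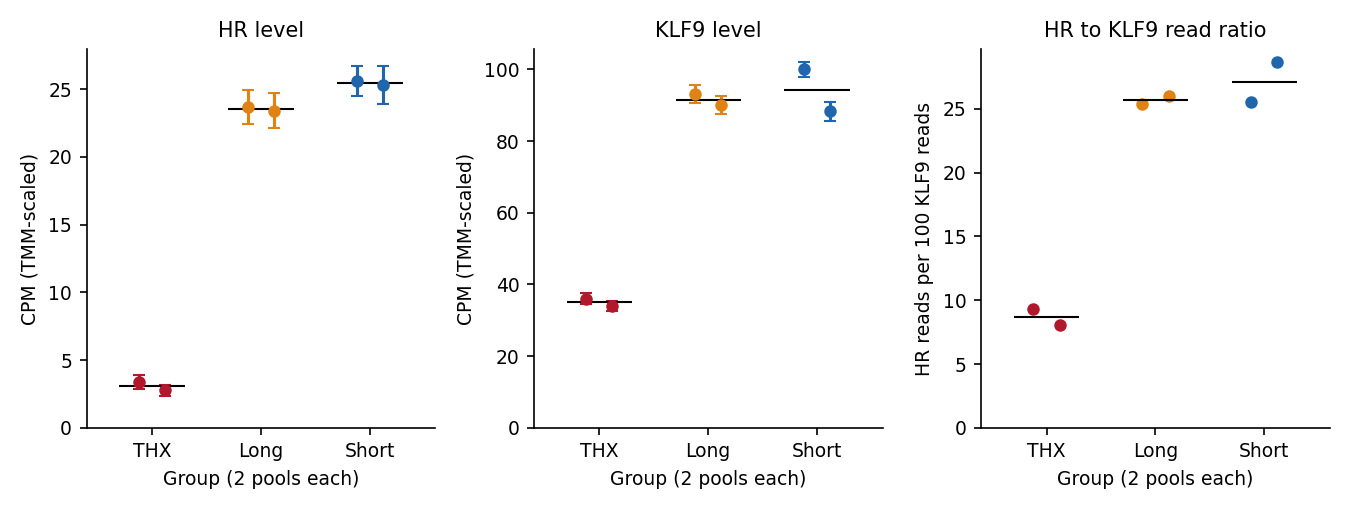
Levels of HR and KLF9 in CPM (y axes of the left and middle panels, from 0) and HR reads per 100 KLF9 reads (right panel) in the 2 pools of each group. Points are pools, black lines are group means, and bars are exact 95% Poisson intervals of the count. THX pools sit at 2.76 to 3.36 CPM for HR and 34.1 to 36.1 CPM for KLF9, below all 4 thyroid-intact pools in both panels.

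The comparison of THX with Long pools held day length constant and differed in the thyroid. HR fell to 13.0% of its Long level (95% interval 10.5% to 16.0%), a log2 difference of −2.94 (SE 0.128, adjusted p = 0.000835, quasi-likelihood test of edgeR over all tested genes). KLF9 fell to 38.3% of its Long level (33.1% to 44.3%), a log2 difference of −1.38 (SE 0.089, adjusted p = 0.0053). Of all 18019 tested genes, 0.283% passed in either direction and 0.233% passed as lower in THX pools. By unadjusted p, HR stood at rank 1 and KLF9 at rank 4 of all tested genes. By size alone they stood out less, HR at rank 45 and KLF9 at rank 315 in absolute log2 difference.

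In the comparison of THX with Short pools, thyroid and day length differed together. HR was at 12% of its Short level (9.74% to 14.8%, adjusted p = 0.0011 by edgeR) and KLF9 at 37.2% (32.2% to 43.1%, adjusted p = 0.00437). In this comparison 0.599% of tested genes passed as lower in THX pools. Set against the mean of Long and Short, HR was at 12.5% (10.3% to 15.2%, log2 difference −3.0, SE 0.12, adjusted p = 0.000665) and KLF9 at 37.8% (33.1% to 43.1%, log2 difference −1.41, SE 0.0811, adjusted p = 0.00299), where 0.627% of tested genes passed as lower. Both genes lay lower in each THX pool than in all 4 thyroid-intact pools, a separation seen in 11.3% of tested genes. These comparisons share the THX pools, so they are not independent of each other.

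Long against Short pools compared the day lengths in ewes that kept their thyroid. Neither gene passed it, and the fit puts limits on what could have been missed. HR in Long pools was at 92.4% of its Short level, with a 95% interval of 76.6% to 112% (log2 difference −0.11, SE 0.114, adjusted p = 0.663 by edgeR). KLF9 in Long pools was at 97.2% of its Short level, with an interval of 84.3% to 112% (log2 difference −0.04, SE 0.0871, adjusted p = 0.852). No gene passed this comparison by edgeR (0% of those tested), although 13.8% had an unadjusted p under 0.05 and DESeq2 called 159. For HR both Long pools lay below both Short pools, with counting intervals that overlapped, and 26.8% of tested genes showed the same separation in that direction. For KLF9 the sign depended on 1 pool, with a log2 difference of 0.05 without Short pool 1 and −0.04 with all pools.

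**Figure D2:**
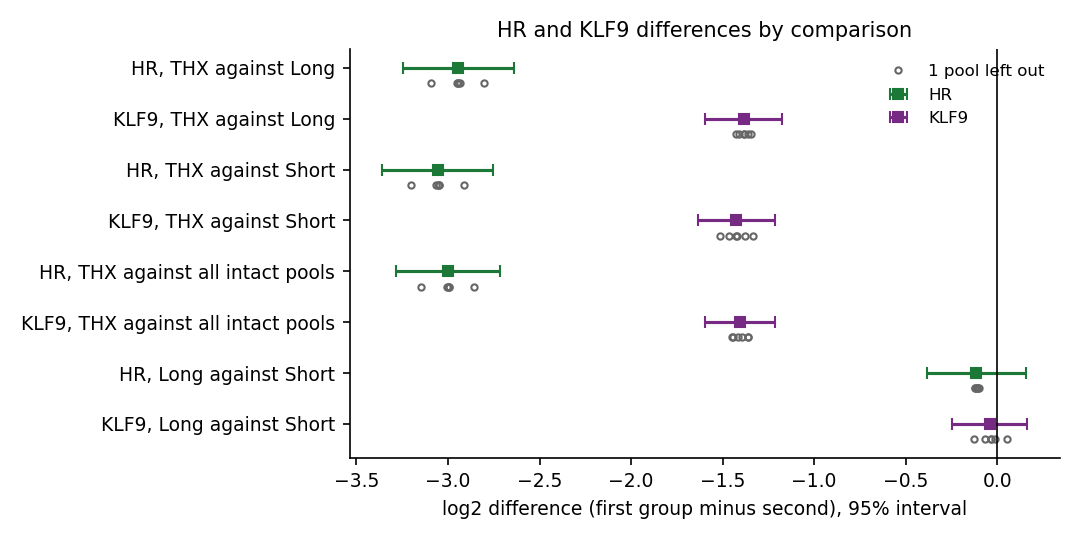
Log2 differences of HR (green) and KLF9 (purple) on the x axis for the 4 comparisons, first-named group minus second, with 95% intervals from the quasi-likelihood fit. Open circles show the value after leaving out each pool in turn. The 3 THX comparisons lie between −2.94 and −3.06 for HR and between −1.38 and −1.43 for KLF9, and both intervals of Long against Short include 0.

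The order of the levels can be read from the pools. For HR it was THX pool 2, THX pool 1, Long pool 2, Long pool 1, Short pool 2 and Short pool 1 from low to high. Pool 1 over pool 2 came to 1.22 in the THX group (exact 95% counting interval 0.991 to 1.5), 1.01 in the Long group (0.937 to 1.09) and 1.01 in the Short group (0.943 to 1.08). Pools of 1 group were thus not distinguishable by counting error for HR in any group. For KLF9 the same ratio was 1.06 in THX (0.997 to 1.12), 1.04 in Long (0.997 to 1.08) and 1.13 in Short (1.09 to 1.18). The Short pools alone differed beyond counting error, with the higher level in the pool that lay apart on the first component. The fitted biological coefficient of variation was 0.105 for HR and 0.081 for KLF9, below the common value of 0.151. The trend over genes of like level lay closer, at 0.130 for HR and 0.096 for KLF9.

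The ratio of HR to KLF9 reads within a pool needs no scaling between libraries, so it shows whether the 2 genes moved by the same fold. There were 9.32 and 8.09 HR reads per 100 KLF9 reads in THX pools, against 25.4 and 26.0 in Long pools and 25.6 and 28.6 in Short pools. The log2 ratio was −3.52 ± 0.145 (SD, n = 2) in THX pools and −1.92 ± 0.081 (SD, n = 4) in thyroid-intact pools, a fold of 3.04 (two-sided exact permutation p = 0.0667, the smallest that 15 splits allow). The design therefore cannot reach 0.05 for this ratio. It was lower in both THX pools than in all 4 other pools, and leaving out any 1 pool moved the log2 difference between −1.70 and −1.50. Over the 6 pools the log2 CPM of the 2 genes had a Pearson r of 0.997, which reflects mainly the distance between THX and the other pools.

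**Figure D3:**
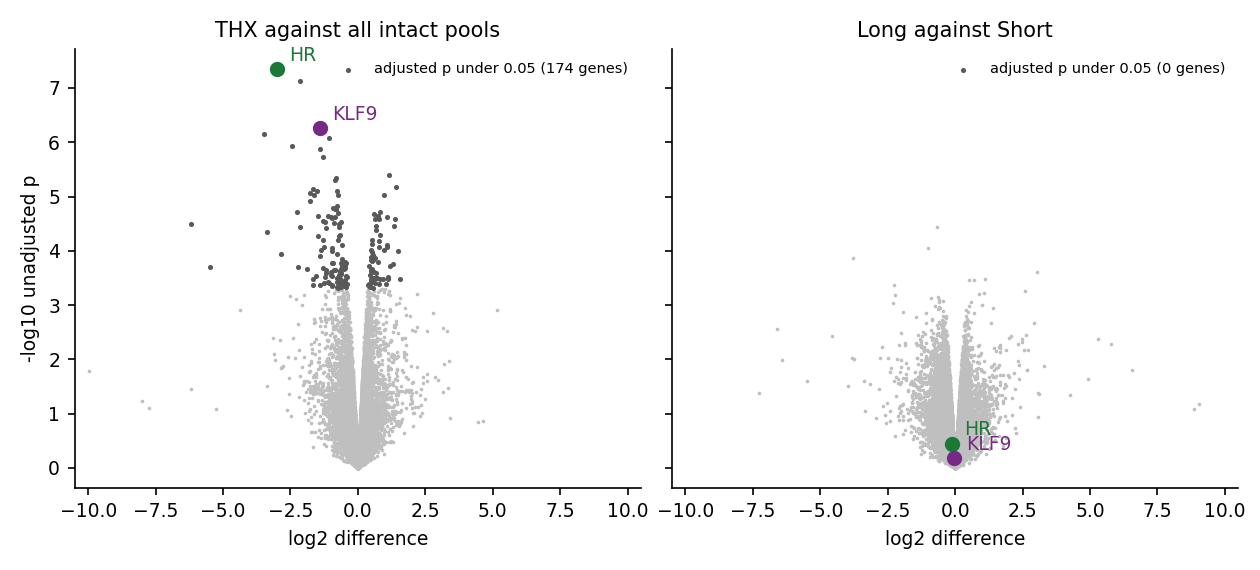
Each point is 1 of 18019 tested genes, with the log2 difference on the x axis and −log10 of the unadjusted p on the y axis, for THX against all thyroid-intact pools (left) and Long against Short (right). Dark points passed the adjusted p threshold of 0.05 (174 genes on the left, 0 on the right). HR and KLF9 lie near the top of the left panel at −3.0 and −1.41 and near the origin of the right one at −0.11 and −0.04.

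HR was called in the THX against Long comparison without each of the 6 pools in turn, with log2 differences from −3.09 to −2.80 and adjusted p (edgeR) up to 0.0146. Of the 51 genes called there, 2 were called in all 6 of these fits, HR and LOC114115315, an identifier without a name in the file. KLF9 was called in 5 of the 6 fits and not in the fit without Long pool 2, where its log2 difference was −1.41 and its adjusted p 0.0882. In the comparison with all thyroid-intact pools, 10 of 174 called genes (0.966% of those tested passed) were called in all 6 fits. HR and KLF9 were among these 10, with adjusted p up to 0.00589 and 0.0288.

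Genes next to HR and KLF9 on the chromosome were examined because the strand setting of the counting is not given in the sources used here. Neighbours were taken from the RefSeq gene table of assembly ARS-UI_Ramb_v3.0, which may differ from the build used for counting, so no positions are given. Of 12 such neighbours with a row, 3 on either side of each gene, 9 were tested and none passed in THX against Long. REEP4, beside HR, had 380 and 394 reads in THX pools, 456 and 457 in Long pools and 671 and 371 in Short pools, a log2 difference of −0.39 between THX and Long (adjusted p = 0.478, edgeR). NUDT18, on its other side, had 704 and 854 reads in THX pools, 752 and 703 in Long pools and 969 and 632 in Short pools (log2 difference −0.06, adjusted p = 0.97). TRPM3, an ion channel gene near KLF9, had a log2 difference of 0.05 (adjusted p = 0.98) and SMC5, on the other side, one of −0.04 (adjusted p = 0.987). The gene table lists 1 gene, HRURF, that overlaps HR, and its reads were not analysed apart from those of HR.

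Other genes known to be induced by thyroid hormone, mostly in rodent brain, liver or heart, were examined as a list. Of 47 listed genes, 44 had a row and 39 were tested in the comparison of THX with Long pools. None rose and 3 fell, HR, KLF9 and the row listed as FLYWCH2, where 0.233% of all tested genes passed as lower. Without HR and KLF9, 22 of the 37 remaining genes lay below 0 at a median log2 difference of −0.04, where the median of all tested genes was 0.00 and 49.7% lay below 0. Against Short pools 26 of the 37 lay below 0 at a median of −0.19 (all tested genes −0.01, with 51.0% below 0), and against all thyroid-intact pools 26 of 37 at a median of −0.09 (all tested genes 0.00, with 50.4% below 0). The row listed as FLYWCH2 (identifier 101116790) had 5.79 and 6.57 CPM in THX pools, 13.2 and 12.7 CPM in Long pools and 10.8 and 11.7 CPM in Short pools, a log2 difference of −1.06 between THX and Long (adjusted p = 0.0385, edgeR). With 1 pool left out it was called in 0 of 6 fits of THX against Long, in 1 of 6 against Short and in 0 of 6 against all thyroid-intact pools. The name of this row is uncertain, because the gene table gives FLYWCH2 to LOC101116622, whose log2 difference was −0.01 (adjusted p = 0.999).

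The other listed targets did not pass in THX against Long pools. SEMA7A, a semaphorin induced in neural cells, had 32.8 and 28.4 CPM in THX pools, 44.0 and 47.2 CPM in Long pools and 48.1 and 42.3 CPM in Short pools (THX minus Long on the log2 scale −0.58, adjusted p = 0.138, edgeR). DBP, a D-box transcription factor of the clock output, had 30.9 and 45.4 CPM in THX pools, 63.4 and 60.1 CPM in Long pools and 51.9 and 58.8 CPM in Short pools (THX minus Long on the log2 scale −0.69, adjusted p = 0.247). ALDH1A1, a retinal dehydrogenase, had a log2 difference of −0.62 (adjusted p = 0.171) and IER5 one of −0.55 (adjusted p = 0.277). Of the 37 genes other than HR and KLF9, 10 had both THX pools below all 4 thyroid-intact pools, a separation seen in 11.3% of all tested genes. The 10 were the row listed as FLYWCH2 and SEMA7A, DBP, ALDH1A1, IER5, NRGN, ITGA7, G6PC, MBP and RBM3. The opposite separation was seen in 3 of the 37 (GLS2, ALDH1A3 and ATP2A1) and in 11% of all tested genes. THRSP, a lipogenic protein named for its hormone response in rodent liver, had 2.87 and 2.77 CPM in THX pools, 3.30 and 3.70 CPM in Long pools and 2.64 and 2.51 CPM in Short pools. DIO1, the deiodinase induced in rodent liver, had under 1 CPM in every pool. Of 14 genes known to be repressed by thyroid hormone, 10 were tested and none passed in any comparison. They also lay mostly below 0, 7 of 10 in THX against Long at a median log2 difference of −0.10. Against Short pools 6 of 10 did at a median of −0.24, and against all thyroid-intact pools 6 of 10 at −0.18. The lean below 0 was thus seen in both the induced and the repressed list.

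**Figure D4:**
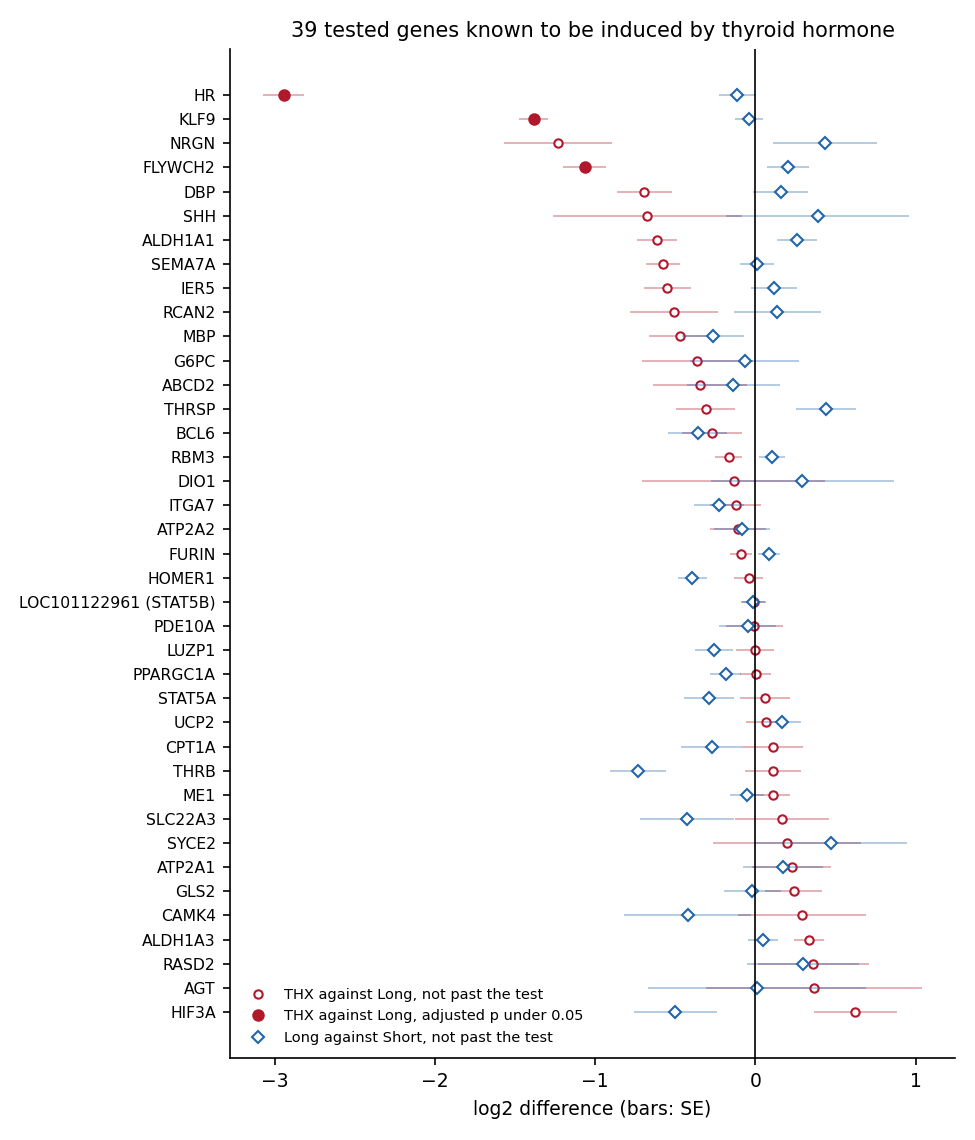
Log2 differences (x axis, bars are SE) of the 39 tested genes known to be induced by thyroid hormone, sorted by THX against Long (red circles), with Long against Short beside them (blue diamonds). Filled symbols passed an adjusted p of 0.05 over all tested genes. HR at −2.94, KLF9 at −1.38 and the row listed as FLYWCH2 at −1.06 are the filled ones.

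The genes that supply thyroid hormone to the cell and read it were examined as another list. Of 19 genes of hormone transport, metabolism and receptors, 17 were tested, and none passed in any of the 4 comparisons. Their median log2 difference between THX and Long pools was 0.07, and 6 of the 17 lay below 0. The receptor gene THRA had 224.5 and 235.5 CPM in THX pools, 197 and 191 CPM in Long pools and 175 and 189 CPM in Short pools (THX minus Long on the log2 scale 0.25, adjusted p = 0.365, edgeR). THRB, the other receptor and itself a hormone target in tadpoles, had 16.6 and 12.4 CPM in THX pools, 13.4 and 13.5 CPM in Long pools and 24.9 and 19.6 CPM in Short pools (THX minus Long on the log2 scale 0.11, adjusted p = 0.959). The receptor partner RXRA, at 0.35 (adjusted p = 0.201), and the transporter SLC7A5, at 0.60 (adjusted p = 0.288), had higher levels in both THX pools than in the other 4. This separation was seen in 7 of the 17, also in RXRG, THRA, SLC3A2, TTR and CRYM. RXRG, another receptor partner, had the largest fitted difference of the 17 at very low levels, with 0.599 and 0.316 CPM in THX pools, 0.0714 and 0.0920 CPM in Long pools and 0.248 and 0.159 CPM in Short pools (THX minus Long on the log2 scale 2.45, SE 0.586, adjusted p = 0.234). TTR had 118900 and 140700 CPM in THX pools, 107600 and 109200 CPM in Long pools and 86400 and 92710 CPM in Short pools (THX minus Long on the log2 scale 0.26, adjusted p = 0.473). DIO2, the deiodinase that makes the active hormone, had 4.15 and 4.20 CPM in THX pools, 3.84 and 5.02 CPM in Long pools and 4.77 and 5.44 CPM in Short pools. DIO3, which inactivates it, had 3 and 0 reads in THX pools, 10 and 5 in Long pools and 8 and 3 in Short pools, too few to be tested.

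Proteins known to bind Hairless were measured as a list of 15 receptors and corepressor subunits, and none passed in any comparison. The corepressor NCOR1 had 188 and 162.5 CPM in THX pools, 179 and 176 CPM in Long pools and 218 and 191 CPM in Short pools (THX minus Long on the log2 scale −0.02, adjusted p = 0.99, edgeR). The vitamin D receptor gene VDR had a log2 difference of −0.17 (adjusted p = 0.66). Hairless belongs to the KDM3 family of JmjC proteins, whose other members are histone demethylases. KDM3A had 42.8 and 39.1 CPM in THX pools, 34.4 and 39.6 CPM in Long pools and 43.5 and 41.4 CPM in Short pools, so its THX pools overlapped with each other group. THX and Long pools differed by 0.15, 0.05 and 0.13 on the log2 scale for KDM3A, KDM3B and JMJD1C (adjusted p = 0.784, 0.97 and 0.89), and HR alone of the 4 passed.

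In mouse epidermis Hairless represses SOSTDC1 and DKKL1, which encode secreted proteins related to Wnt signalling. SOSTDC1 had 6.76 and 6.43 CPM in THX pools, 2.34 and 2.52 CPM in Long pools and 2.69 and 2.47 CPM in Short pools. Its levels in THX pools lay above those of all other pools (THX against Long log2 difference 1.44, SE 0.174, adjusted p = 0.0337, edgeR). With 1 pool left out SOSTDC1 was called in 0 of 6 fits of THX against Long, at log2 differences of 1.39 to 1.5, and in 3 of 6 against all thyroid-intact pools. DKKL1 had 34.0 and 38.1 CPM in THX pools, 35.1 and 36.5 CPM in Long pools and 31.0 and 32.6 CPM in Short pools (THX minus Long on the log2 scale 0.01, adjusted p = 0.995). This list is 2 genes long, and SOSTDC1 was known to have changed in these data when the list was drawn up.

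Of the Krüppel-like factors, 16 of 18 listed genes were tested and KLF9 was the member that passed in each THX comparison. Among the other 15, the median log2 difference between THX and Long pools was −0.15, and 12 lay below 0, where 49.7% of all tested genes did. KLF13, a close relative of KLF9, had 2.92 and 2.14 CPM in THX pools, 4.64 and 3.90 CPM in Long pools and 6.88 and 5.84 CPM in Short pools. Both THX pools lay below all other pools for 3 of the 15, KLF13, KLF10 and KLF8, a separation seen in 11.3% of all tested genes. The opposite separation was seen in 1 of the 15 (KLF16) and in 11% of all tested genes. The difference of KLF13 did not pass against Long (log2 difference −0.76, adjusted p = 0.333), against Short (−1.33, adjusted p = 0.0538) or against both (−1.04, adjusted p = 0.0752, all by edgeR). KLF10 had a log2 difference of −0.37 between THX and Long pools (adjusted p = 0.556). KLF15, a glucocorticoid-induced member, had 117 and 109.7 CPM in THX pools, 118 and 111 CPM in Long pools and 96.3 and 94.8 CPM in Short pools (THX minus Long on the log2 scale −0.01, adjusted p = 0.989). The 7 tested genes of the related SP family, in which none passed, had a median of −0.08.

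Because KLF9 is also a glucocorticoid target and follows the clock in some tissues, lists for both were examined. Of 21 tested glucocorticoid-induced genes, KLF9 and SGK1 fell and none rose in THX against Long pools, and the median log2 difference was −0.03. Without KLF9, SGK1 was the 1 gene of 20 that passed. Of these 20, 12 lay below 0 at a median of −0.025. Of all tested genes 0.233% passed as lower in this comparison and 49.7% lay below 0. SGK1, a kinase that regulates sodium channels, had 262 and 295 CPM in THX pools, 464 and 504 CPM in Long pools and 511 and 494 CPM in Short pools (THX minus Long on the log2 scale −0.80, adjusted p = 0.0272, edgeR), and was called in 1 of 6 fits with a pool left out. The members next in p were DUSP1, ARRDC2, CEBPD and PDK4, at −0.47, −0.49, 0.34 and −0.41 for THX minus Long on the log2 scale. None of these passed (adjusted p = 0.473, 0.526, 0.537 and 0.543, edgeR). The widely used glucocorticoid markers FKBP5, TSC22D3 and PER1 differed by 0.26, −0.03 and 0.02 on the log2 scale (adjusted p = 0.951, 0.988 and 0.991), with groups that overlapped. A part of glucocorticoids in the level of KLF9 was not tested. FKBP5 had 154 and 73.9 CPM in THX pools, 106 and 83.5 CPM in Long pools and 110.3 and 59.2 CPM in Short pools, so it varied more between pools than between groups. Of 22 tested clock genes none passed in THX against Long, 1 passed against all thyroid-intact pools and 1 against Short. Of all tested genes 0.966% passed against all thyroid-intact pools in either direction, and 0.599% passed as lower against Short. ARNTL, an activator at the core of the clock, had 32.4 and 27.1 CPM in THX pools, 18.2 and 20.6 CPM in Long pools and 18.7 and 18.9 CPM in Short pools, and passed against all thyroid-intact pools (log2 difference 0.64, adjusted p = 0.0473) but in no fit with a pool left out. The clock repressor NR1D2 passed as lower in THX than in Short pools (log2 difference −0.46, adjusted p = 0.045), a call also made in 1 of 6 such fits.

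The genes whose levels ran most like those of HR over the 6 pools were found by distance between log2 CPM profiles, each centred on its own mean. Among 12065 named genes with a mean of at least 2 CPM, the nearest to HR were NOXO1, an organiser of a superoxide-producing oxidase (distance 0.748, Pearson r 0.993), GALNT14, which starts O-glycosylation (0.852, r 0.983), and SERTAD4 (0.977, r 0.985). NPPC, BRINP1, KIT, the gene listed as CDH23 and SLC1A7 followed at 1.19 to 1.62. The median distance of all genes searched was 3.47. NOXO1 had 1.20 and 1.34 CPM in THX pools, against 7.05 and 7.34 CPM in Long pools and 6.62 and 6.95 CPM in Short pools. GALNT14 had 0.722 and 0.587 CPM in THX pools, against 8.42 and 9.04 CPM in Long pools and 6.68 and 5.28 CPM in Short pools. These profiles were chosen for being low in THX pools, so that feature is not a finding.

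For KLF9 160 of the genes searched lay within a distance of 1, against 3 for HR. The distance depends on the size of the step, and its median over the genes searched was 1.65 for KLF9. By correlation, which does not depend on that size, the counts were nearly equal, with a Pearson r of at least 0.99 for 11 genes with KLF9 and 10 with HR. The nearest to KLF9 was MLXIPL, which encodes the glucose-responsive lipogenic factor ChREBP (distance 0.189, r 0.993). MLXIPL had 42.7 and 47.9 CPM in THX pools, against 119 and 120.3 CPM in Long pools and 128 and 109.9 CPM in Short pools. The potassium channel gene KCNK3 (0.266), carboxypeptidase M (symbol CPM, 0.289) and the netrin gene NTNG2 (0.294) were also among the 8 nearest, as were HS3ST2, HMCN1 and TKTL1, at 0.331 to 0.366. KLF9 and HR lay 1.85 apart, since HR moved by the larger amount. The measure spans 6 pools and depends mainly on the step between THX and the other groups.

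**Figure D5:**
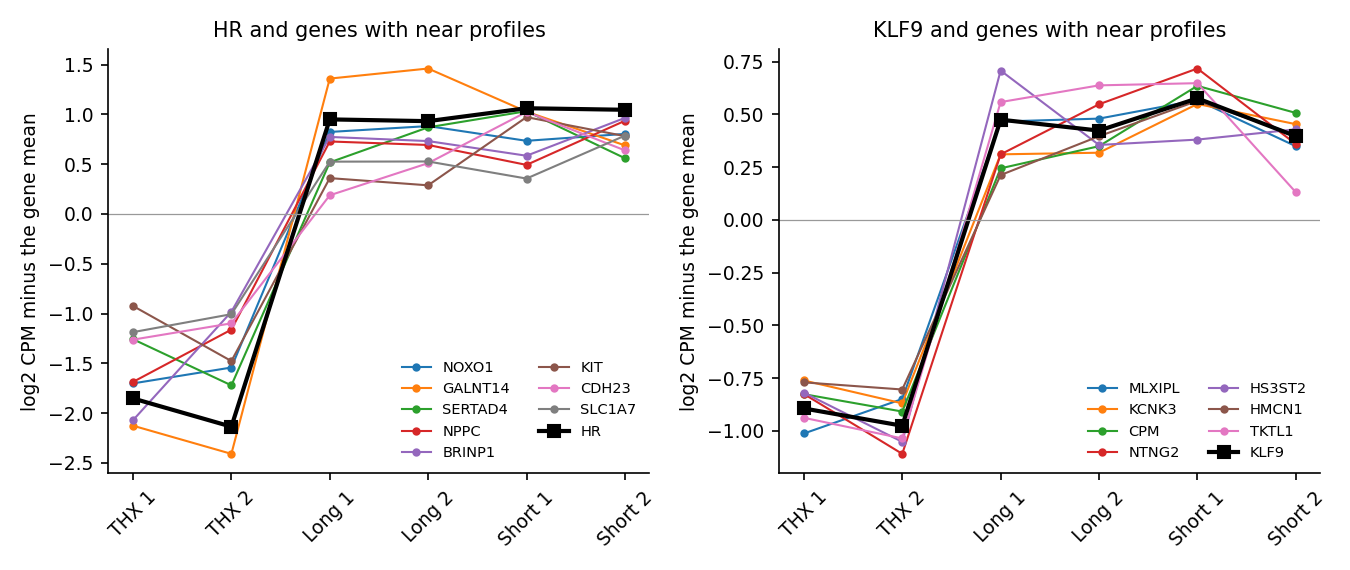
Log2 CPM minus the mean of each gene (y axes) over the 6 pools (x axes) for HR (left, black) and KLF9 (right, black) with genes nearest to each in colour; lines join pools for legibility. HR steps lower in the THX pools than most of its nearest genes, whose distances are 0.748 to 1.62, while the genes drawn with KLF9 lie at 0.189 to 0.366.

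Summed markers of other cell types were set beside these results, and bulk RNA cannot tell fewer cells of a type from less RNA per cell. The single markers that passed in THX against Long pools by edgeR were each lower in THX pools. They were KIT of 4 tested mast cell genes, LUM of 19 fibroblast and leptomeninges genes, and HTR2C and CAB39L of 28 epithelial genes. Of all tested genes 0.233% passed as lower there. These 4 also passed as lower against Short and against all thyroid-intact pools, as did KL of the epithelial list, while IGFBP2 passed as higher. Of all 18019 tested genes, 165 passed against Short and 174 against all thyroid-intact pools. The lymphocyte, ependymal, neuron, oligodendrocyte and pituitary lists had no member called in any comparison. The 6 mast cell genes with a row summed to 31.8 and 28.2 CPM in THX pools, 57.4 and 53.6 CPM in Long pools and 72.7 and 69.3 CPM in Short pools. KIT, which is also among the nearest profiles of HR, made up 66.1% of that sum. Without KIT it was 16.4 and 17.7 CPM in THX pools, 19.8 and 17.9 CPM in Long pools and 15.3 and 19.0 CPM in Short pools. Both THX pools then still lay below both Long pools, but between the Short pools.

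The 20 fibroblast and leptomeninges genes summed to 1100.0 and 1303 CPM in THX pools, 1635 and 1538 CPM in Long pools and 1369 and 1659 CPM in Short pools. This sum was lower in each THX pool than in all other pools, as were those of the 13 lymphocyte and the 14 oligodendrocyte genes. The oligodendrocyte genes summed to 111 and 110.0 CPM in THX pools, 113 and 126 CPM in Long pools and 123 and 123 CPM in Short pools. The sums of the ependymal, neuronal and pituitary and pineal genes were higher in each THX pool than in all others. The 13 ependymal genes summed to 927 and 1089 CPM in THX pools, 899 and 818 CPM in Long pools and 787 and 804 CPM in Short pools. The 18 neuronal genes summed to 567 and 543 CPM in THX pools, 502 and 509.8 CPM in Long pools and 502 and 506 CPM in Short pools, of which SNAP25 made up 57.9%. Pituitary and pineal genes, 12 of 14 with a row, summed to 726 and 264 CPM in THX pools, 53.5 and 165 CPM in Long pools and 221 and 89.0 CPM in Short pools, of which PRL made up 68.6%. Each of these separations from all other pools was lost without a single gene. These were OGN (fibroblast and leptomeninges), IL7R (lymphocyte), CNP or MBP (oligodendrocyte), FOXJ1 (ependymal), SNAP25 (neuronal) and PRL (pituitary and pineal). Without OGN, IL7R or MBP both THX pools still lay below both Long pools, but not below both Short pools. In THX against Long, 17 of 19 tested fibroblast and leptomeninges, 12 of 13 lymphocyte and 9 of 12 oligodendrocyte genes lay below 0. So did 2 of 12 ependymal, 7 of 15 neuronal and 3 of 10 pituitary and pineal genes, and 49.7% of all tested genes. The sums of endothelial, pericyte, macrophage, astrocyte and red blood cell markers and of immediate early genes overlapped between THX and thyroid-intact pools. The part of these cell types in the levels of HR and KLF9 was not tested.

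Skin, where Hairless is best known, was represented by 12 of 13 keratinocyte and hair follicle genes with a row. They summed to 75.1 and 76.6 CPM in THX pools, 73.6 and 85.1 CPM in Long pools and 73.7 and 67.5 CPM in Short pools, with FLG, IVL and KRT71 at 0 in every pool. KRT5 made up 76.5% of this sum and KRT10 15.2%, so it mostly reflects 1 gene.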

How the data were processed

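The deposited file holds raw, unnormalised counts of reads per gene, as the authors left them, for polyA RNA of 6 pools of choroid plexus. The library kit was a stranded one, per the labels. The submitters' processing notes name featureCounts 2.0.0, SAMtools 1.9, TopHat2 2.1.1, MultiQC 1.9, FastQC 0.11.8 and bcl2fastq 2.20. The build, annotation and strand setting behind the counts are not stated in the sources at hand. Of 33609 identifiers, 28100 were found in the RefSeq gene table of assembly ARS-UI_Ramb_v3.0, used for names and neighbours only.

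The default expression filter of edgeR 4.0.16 (R 4.3.3) was applied and TMM scaling used. All 6 pools entered a quasi-likelihood model with group means, with 3 residual and 3.96 prior degrees of freedom. Two-sided tests had Benjamini-Hochberg adjustment across the 18019 tested genes and a threshold of 0.05. "Rose", "fell" and "called" refer to this threshold. SE and 95% intervals come from the same model. Profiles used log2 CPM with a prior count of 2. The ratio of HR to KLF9 was tested by exact permutation of pools. Total counts of 48282883 to 82100653 per pool gave at least 183 reads for HR and 2049 for KLF9.

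The members, the gene lists and the alternatives were chosen with earlier results of these data known. The rule for naming genes took HR and KLF9, the 8 nearest profiles of each, of each list the called members and up to 4 with the lowest p of THX against Long, and 11 genes of hormone signalling and corepression. Markers, TRPM3, SMC5, REEP4, NUDT18, LOC114115315, LOC101116622, THRSP, KLF15 and genes named for THX pools lying outside all other pools were named outside that rule, after their values were seen. Marker sums were also taken without each gene in turn, a step added after seeing the data. FKBP5, TSC22D3 and PER1 were also named outside the naming rule. Some lists are given by their counts, with fewer members named than the rule allows. Not every gene so chosen is reported here. Pool numbers were not taken to pair the pools, since the deviations of same-numbered pools correlated at 0.067 (THX and Long), 0.211 (THX and Short) and −0.059 (Long and Short). Pools of 1 group differed by 70.1 (THX), 15.8 (Long) and 28.3 (Short) times the variance expected of counting, so none was a repeat of another. limma 3.58.1 (voom) and DESeq2 1.42.0 served as alternatives. The procedure was tested on simulated counts. Plots were made in matplotlib 3.10.9 under Python 3.11.15. No sequences were used.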

Additional observations from a re-analysis of the deposited data

How the results depend on the processing

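With 15 alternatives per pairwise comparison and 14 for THX against all thyroid-intact pools, HR kept its direction and its side of the threshold in all of them. KLF9 did so except where 1 pool was left out, in THX against Long (threshold missed without Long pool 2, adjusted p = 0.0882 by edgeR) and in Long against Short (sign changed without Short pool 1). Over the fits that left out 1 pool, the log2 difference ran from −3.09 to −2.80 for HR and −1.43 to −1.34 for KLF9 in THX against Long. It ran from −3.20 to −2.91 and −1.51 to −1.33 in THX against Short, from −3.15 to −2.86 and −1.45 to −1.36 in THX against all thyroid-intact pools, and from −0.12 to −0.10 and −0.127 to 0.0523 in Long against Short. Where a group was left with 1 pool, that pool was assumed to vary like the other groups. The log2 ratio of HR to KLF9 differed by −1.56 against Long pools alone and −1.64 against Short pools alone.

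The replicate block, with pool number as a term, gave log2 differences of −2.95 for HR and −1.39 for KLF9 in THX against Long (adjusted p = 0.00228 and 0.00495 by edgeR) and changed no call of either gene. Its count of called genes was 48 in THX against Long, 392 in THX against Short and 264 against all thyroid-intact pools.

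Numbers of called genes depended more on the procedure. In THX against Long 51 genes passed, and 448 did by DESeq2, 204 without the filter, 22 with only the pools compared and 2 to 37 without 1 pool. In THX against Short 165 passed, and 1761 did by DESeq2, 908 without the filter, 259 with total counts only, 11 with only the pools compared and 10 to 1087 without 1 pool. Against all thyroid-intact pools 174 passed, and 1039 did by DESeq2, 553 without the filter and 10 to 122 without 1 pool. In Long against Short none passed by edgeR, and 159 did by DESeq2 and 0 to 4 without 1 pool. With total counts only, the median log2 difference of all genes in THX against Short moved to −0.11, and 18.9% of calls were higher in THX, against 34.5% with TMM. In THX against all thyroid-intact pools this share was 20.1%, against 35.1%. The cause of these differences was not tested. With 2 pools per group, differences between single ewes cannot be seen, and of the members' values the counts of HR in THX pools had the widest relative counting error.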
